A study of Mus musculus with 18 samples.

Results

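The genes that carry glucose into the cell and break it down were followed through 9 maps of H3K79me2 in mouse CD4 T cells. H3K79me2 is dimethylation of lysine 79 of histone H3, which the methyltransferase DOT1L lays along transcribed genes. The group was chosen by name, from the known enzymes and transporters of the pathway, and holds 35 of the 21631 protein-coding genes annotated on chromosomes 1 to 19 and X. The 9 libraries were 3 of Th2 cells, 3 of Th1 cells and 3 of naive cells, made by chromatin immunoprecipitation with an H3K79me2 antibody. All 3 cell types are labelled as WT in genotype. Th2 cells came from the 4C13R reporter mouse (IL-4 AmCyan and IL-13 dsRed) after a culture of 4 days on plates coated with antibodies to CD3 and CD28, with the cytokines IL-2 and IL-4 and an antibody to IFNg, and were sorted by either reporter. Th1 cells came from an IFNg-YFP reporter mouse after the same stimulation for 4 days with the cytokines IL-2 and IL-12 and an antibody to IL-4, and were sorted by YFP. Naive cells were taken straight from spleens of WT mice by a CD44- CD62L+ sort and were not cultured. Culture, mouse strain and cell type thus changed together and cannot be told apart. Whether the 3 libraries of a cell type stem from different animals is not stated, and the p-values reflect library-to-library spread, which may be technical. The 9 input libraries were not analysed here.

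Glycolysis splits glucose into pyruvate, which is either reduced to lactate and exported or carried into mitochondria and oxidised. A side branch, the pentose phosphate pathway, makes NADPH and ribose for nucleotides. Resting T cells mostly oxidise their fuel, while activated T cells take up more glucose and release lactate. Several steps have more than 1 gene, each coding an isozyme with its own regulation, so that cells can change an enzyme's properties by changing which gene they use.

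Promoter sequence is shown for 5 genes whose marked state is described below: Hk2, Slc16a3 and Pgk1, which gained coverage in both polarised cell types, Ldhb, which lost it, and Ldha, its isozyme. Each line is the 250 bases before the annotated start (for Ldha the upstream start of a pair, and for Slc16a3 a start 0.583 kb inside the annotated gene), from RefSeq on GRCm38.p6. Capitals mark the letters ACGTG, the core of the hypoxia response element, the letters GCGTG, its other form, and CACGTG, the E-box bound by MYC, each on either strand. CACGTG contains ACGTG. The windows are chr6:82774455-82774704 on the minus strand for Hk2, chr11:120948817-120949066 on the plus strand for Slc16a3, chrX:106186850-106187099 on the plus strand for Pgk1, chr7:46845554-46845803 on the plus strand for Ldha and chr6:142507958-142508207 on the minus strand for Ldhb.
Hk2: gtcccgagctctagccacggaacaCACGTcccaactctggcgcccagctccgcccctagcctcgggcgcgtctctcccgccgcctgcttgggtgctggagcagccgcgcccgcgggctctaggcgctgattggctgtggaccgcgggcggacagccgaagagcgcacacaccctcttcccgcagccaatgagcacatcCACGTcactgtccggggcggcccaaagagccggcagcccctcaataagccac
Slc16a3: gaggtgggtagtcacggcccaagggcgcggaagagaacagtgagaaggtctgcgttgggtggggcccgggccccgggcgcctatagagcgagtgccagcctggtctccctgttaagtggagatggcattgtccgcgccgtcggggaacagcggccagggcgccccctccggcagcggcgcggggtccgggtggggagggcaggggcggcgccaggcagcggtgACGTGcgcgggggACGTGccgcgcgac
Pgk1: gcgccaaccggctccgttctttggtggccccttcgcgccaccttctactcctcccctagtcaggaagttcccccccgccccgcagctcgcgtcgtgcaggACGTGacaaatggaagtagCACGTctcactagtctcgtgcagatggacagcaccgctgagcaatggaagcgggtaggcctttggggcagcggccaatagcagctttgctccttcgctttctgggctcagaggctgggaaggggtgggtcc
Ldha: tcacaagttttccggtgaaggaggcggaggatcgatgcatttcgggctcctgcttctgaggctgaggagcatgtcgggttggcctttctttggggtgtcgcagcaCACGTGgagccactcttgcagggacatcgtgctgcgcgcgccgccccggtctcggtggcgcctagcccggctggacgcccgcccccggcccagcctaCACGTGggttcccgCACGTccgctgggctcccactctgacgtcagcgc
Ldhb: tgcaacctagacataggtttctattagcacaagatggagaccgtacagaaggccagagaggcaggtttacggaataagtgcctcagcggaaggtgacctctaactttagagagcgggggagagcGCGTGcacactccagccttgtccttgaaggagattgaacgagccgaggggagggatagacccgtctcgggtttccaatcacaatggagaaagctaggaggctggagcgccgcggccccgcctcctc

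RefSeq promoters were matched by symbol for 34 of the 35 genes, all but Slc2a3, and gave 51 starts. ACGTG lay in 18 of these 51 windows (35.3%), against 17.9% of 21045 windows of all genes. GCGTG lay in 31 (60.8%), against 34.1% of all windows. CACGTG lay in 5 (9.80%), against 6.70%, and TATAAA, the TATA box, in 0, against 11.7%. Windows of genes with several starts can overlap, as in Eno1 and Aldoa, so the windows are not independent. Counted by gene, ACGTG lay before 14 and GCGTG before 26 of the 34 genes. The share by gene over all genes was not computed, and no enrichment was tested. The Ldha window held CACGTG 2 times. ACGTG was counted 5 times there, since each palindromic CACGTG holds it on both strands and 1 further match stands alone, while the Ldhb window held GCGTG 1 time and neither of the others. Pfkfb2, which lost coverage, held CACGTG before 1 of its 3 starts, so the letters were found before genes of both directions. A match describes the sequence only.

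The measure throughout is coverage: the share of an annotated gene's bases, in percent, that lie under the merged peaks of 1 library on mm10. It cannot exceed 100%, it may rise with sequencing depth, and read depth is unknown. The naive lists covered 276 to 285 Mb, more than the 232 to 250 Mb of Th2 lists and the 217 to 240 Mb of Th1 lists. Peaks numbered 45894 to 51854 in Th2, 41504 to 46085 in Th1 and 38026 to 40455 in naive lists. All 10 pan-T-cell genes checked, such as Cd3e and Cd4, were at least 50% covered on average in each cell type. The Th2 list (Gata3, Il4, Il5, Il13) averaged 93.8 to 100% in Th2, 14.8 to 38.1% in Th1 and 18.7 to 19.2% in naive libraries. The Th1 list (Tbx21, Ifng, Il12rb2, Cxcr3) averaged 48.7 to 64.9% in Th2, 95.8 to 97.3% in Th1 and 6.95 to 7.86% in naive libraries, so that Th2 cells carried part of it. The CD8 genes Cd8a and Cd8b1 averaged 12.4 to 19.6% in Th2, 3.77 to 5.93% in Th1 and 100% in all 3 naive libraries, although the source is labelled as CD4+. Among genes of B cells, Blk, Pax5 and Ms4a1 were at 0 in all 9 libraries, Cd79a was at 100% in all 9, and Cd79b averaged 0% in Th2, 0% in Th1 and 54.3% in naive cells. Of 5 myeloid genes, 5, 4 and 4 were at 0 in Th2, Th1 and naive cells. The 3 NK cell genes averaged 26.3 to 33.3% in Th2, 13.3 to 18.5% in Th1 and 33.3% in naive libraries, with Ncr1 at 0 throughout, and the 3 erythroid genes averaged 7.37 to 15.2%, 6.82 to 7.98% and 0%. The part of these differences in the results below was not tested.

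Most of the pathway carried the mark in every cell type. Coverage reached 50% in 2 or more of the 3 libraries for 26 of 35 genes in Th2, 26 in Th1 and 24 in naive cells, that is 74.3%, 74.3% and 68.6%. Over all protein-coding genes these shares were 26.8%, 26.5% and 33.1%. At a minimum of 80% covered, the counts were 17, 16 and 12 genes (all genes: 14.2%, 14.2% and 19.5%). The median gene of the pathway was covered over 74.9% in Th2, 67.1% in Th1 and 70.4% in naive cells. Gapdh, the enzyme that makes the first NADH of glycolysis, was covered over 100% in all 9 libraries and so entered no test.

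**Figure D1:**
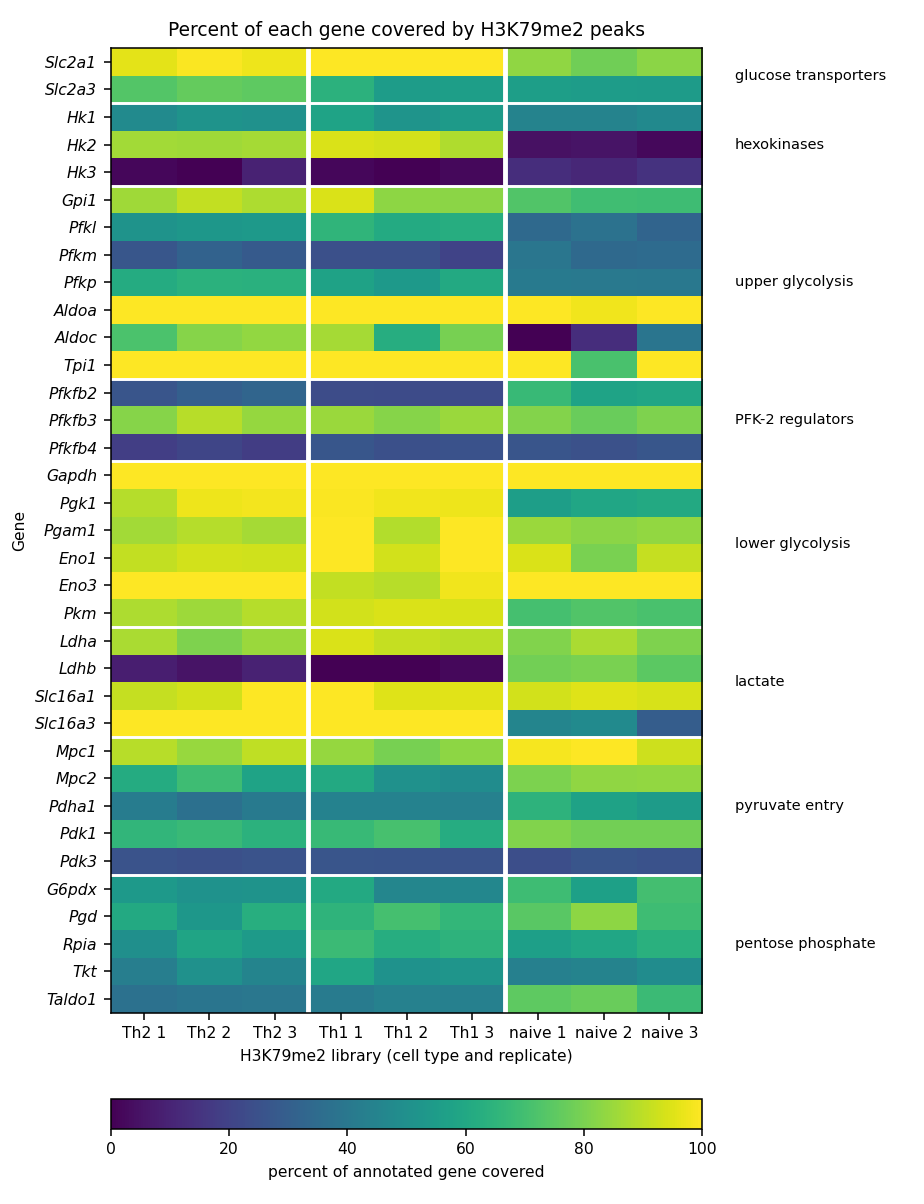
Percent of each of the 35 genes covered by H3K79me2 peaks (colour, 0 to 100%) in the 3 Th2, 3 Th1 and 3 naive libraries, with genes grouped by role. Hk2, Aldoc, Slc16a3 and Pgk1 are covered more in the 6 polarised libraries, and Ldhb, Taldo1 and Pfkfb2 more in the 3 naive ones, while Gapdh stays at 100% throughout.

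A gene was called where limma, fitted on the 11600 genes that varied between libraries, gave a Benjamini-Hochberg adjusted p under 0.05 and the group means differed by at least 25 percentage points. In Th2 against naive cells, 4 of the 34 genes tested were called higher (Hk2, Aldoc, Slc16a3 and Pgk1; 11.8%) against a background of 4.26% of all genes, and 3 were called lower (Ldhb, Taldo1 and Pfkfb2; 8.82%) against 15.4%. In Th1 against naive cells, 5 were called higher (Hk2, Slc16a3, Aldoc, Pgk1 and Pfkl; 14.7%) against 4.38%, and 4 lower (Ldhb, Pfkfb2, Taldo1 and Mpc2; 11.8%) against 16.3%. These comparisons share the 3 naive libraries. A gene with a naive mean less than 25 points below full coverage could not be called higher in them. Nor could a gene with a naive mean less than 25 points above no coverage be called lower. The median difference of the 34 genes was 0.784 points in Th2 and 3.65 points in Th1 cells, where all genes had medians of -5.50 and -5.54 points. With libraries centred to a common mean, the counts higher and lower became 8 and 2 in both comparisons, beside 739 and 1118 of all genes in Th2 and 736 and 1175 in Th1 cells (494 and 1781, and 508 and 1895, as deposited). With covered length matched between libraries they became 5 and 4 in Th2 and 7 and 4 in Th1 cells (all genes: 756 and 1095, and 817 and 1032).

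A minimum of 10 points gave 10 genes higher in Th2 against naive cells (29.4%, background 8.5%) and 8 lower (23.5%, background 36.2%). In Th1 against naive cells it gave 10 higher (29.4%, background 8.53%) and 10 lower (29.4%, background 37.2%). The genes higher at this minimum but short of 25 points in Th2 cells were Slc2a1, Slc2a3, Gpi1, Pfkl, Pfkp and Pkm, and in Th1 cells Slc2a1, Gpi1, Pfkp, Pgam1 and Pkm. In Th2 cells Mpc2, Pdha1, Pgd, Pdk1 and G6pdx were lower at this minimum, and in Th1 cells Mpc1, Pdha1, G6pdx, Pfkm, Pdk1 and Hk3.

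**Figure D2:**
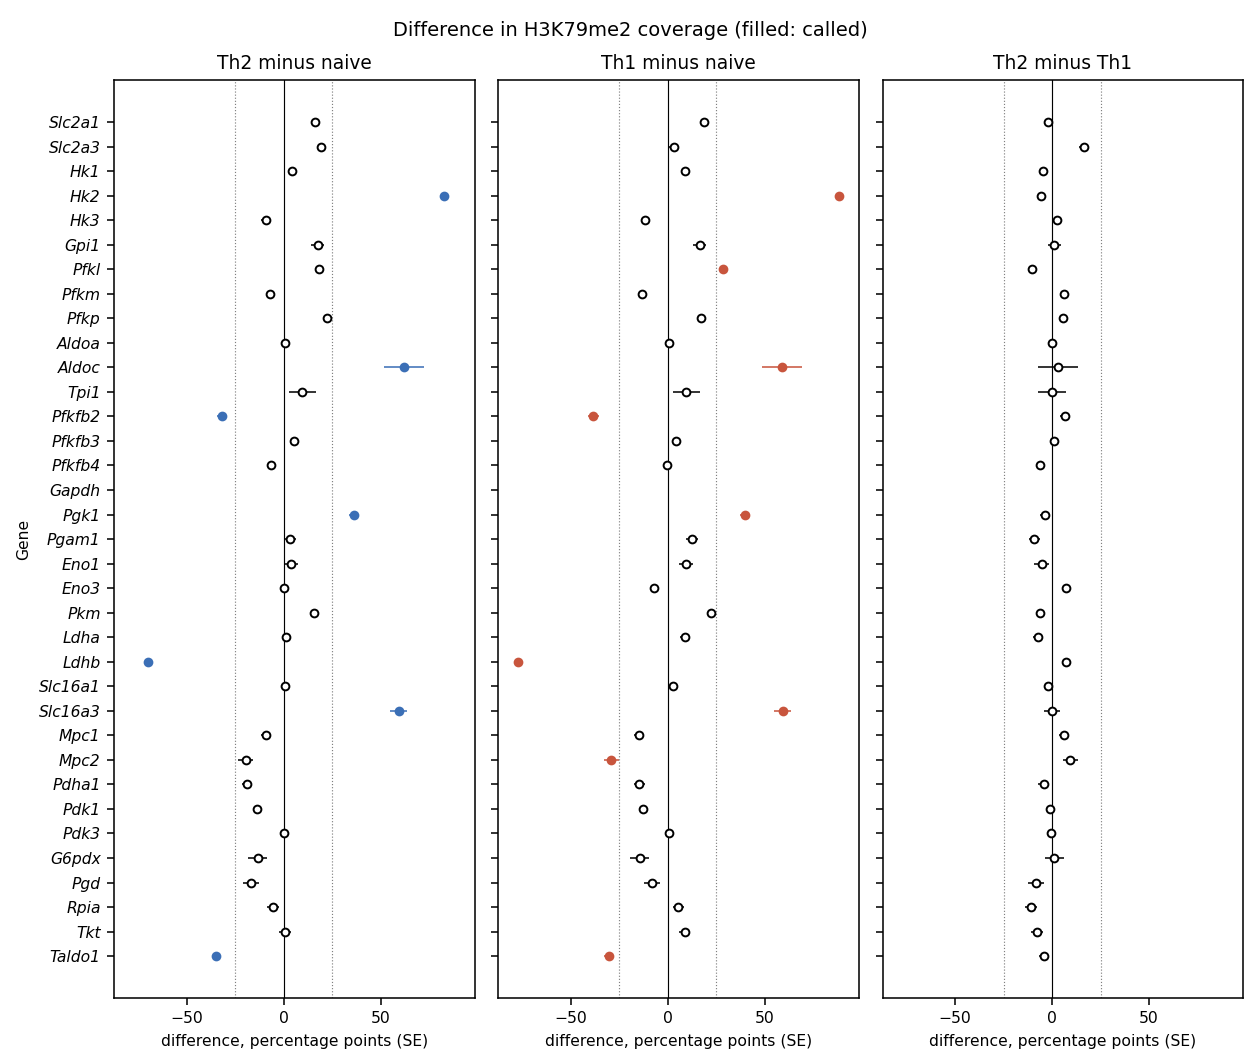
Difference in percent of the gene covered (points, with SE from limma) for Th2 minus naive, Th1 minus naive and Th2 minus Th1, 1 row per gene in order of role, with dotted lines at 25 points either way. Filled points are called: 4 right and 3 left of 0 in Th2 minus naive, 5 and 4 in Th1 minus naive, and 0 in Th2 minus Th1; Gapdh has no point.

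Both glucose transporters were marked in every library, and neither was called. With a naive mean of 81.4%, Slc2a1 could not rise by 25 points, so it could not have been called higher. Slc2a1, which codes the transporter GLUT1, was covered over 96, 99.5 and 97.4% in Th2, over 100% in all 3 Th1 and over 83.2, 78.2 and 82.8% in naive libraries. Slc2a3, which codes the high-affinity GLUT3, was covered over 73.1, 76.5 and 75.1% in Th2, 64.3, 55.2 and 56.2% in Th1 and 56.2, 55.2 and 55.1% in naive libraries. Slc2a1 was above naive in all 6 polarised libraries, by 16.3 ± 1.52 points in Th2 (SE, limma adjusted p = 6e-05) and 18.6 ± 1.52 in Th1 cells (limma adjusted p = 2.7e-05). The domain over its start ran 27.9 ± 0.505 kb downstream in Th2, 31.4 ± 1.89 kb in Th1 and 19.8 ± 3.45 kb in naive cells (SD, n = 3 each), for a gene of 28.6 kb. Slc2a3 was above Th1 in all 3 Th2 libraries, by 16.4 ± 2.49 points (limma adjusted p = 0.0043), the widest gap between the 2 polarised cell types among the 34 genes. With peaks of −log10 q of at least 5, with matched covered length or with centred libraries, Slc2a3 passed 25 points in Th2 against naive cells (30.4, 56.0 and 27.1 points).

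Hexokinases trap glucose as glucose-6-phosphate, and 1 of their 3 genes was called higher in each polarised cell type, with the largest difference of the pathway. Hk2, the inducible isozyme, lies at chr6:82725025-82774454 on the minus strand. It was covered over 86.2, 85.8 and 86.6% in Th2, 94.2, 93.5 and 88.2% in Th1 and 4.37, 5.23 and 1.96% in naive libraries. Every polarised library lay above every naive one, and the differences were 82.4 ± 1.92 points in Th2 (SE, limma adjusted p = 5.5e-08) and 88.1 ± 1.92 in Th1 cells (limma adjusted p = 3.8e-08). A domain over the Hk2 start reached 40.8 ± 0.0496 kb into the gene in Th2 and 42.8 ± 3.25 kb in Th1 cells (SD, n = 3 each), and the start was covered in 0 of 3 naive libraries. In such bulk samples a smaller share of cells with a marked gene and less mark in each cell cannot be told apart. Hk1, the constitutive isozyme, was covered over 47.9, 51.5 and 50.4% in Th2, 57.9, 51.8 and 54.4% in Th1 and 44.7, 44.8 and 47.4% in naive libraries. Its upstream start was covered in 0 of 9 libraries, and its second start, 39.5 kb into the gene, in all 9, with domains running 42.9 ± 0.483, 44.4 ± 0.656 and 42.8 ± 0.511 kb from it in Th2, Th1 and naive cells. Hk3, a myeloid-enriched hexokinase, was covered over 1.57, 0 and 9.53% in Th2, 1.79, 0 and 1.99% in Th1 and 13.2, 11.1 and 14.7% in naive libraries, and it overlaps Unc5a at 1 end. Against naive cells its difference in Th1 cells was -11.7 points over the gene (limma adjusted p = 0.0033), -34.6 in the first 5 kb (limma adjusted p = 0.0089) and 0.663 with matched covered length (limma adjusted p = 0.35).

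Within a library, Hk2 minus Hk1 was 36.3 ± 1.96 points in Th2 and 37.3 ± 4.05 in Th1, against -41.8 ± 3.18 in naive cells (SD, n = 3 each). In percent covered, the order of the pair was thus opposite in naive cells, in 3 of 3 libraries of each type. In mean covered length it was not, since Hk1 is the longer gene. Hk1 was covered over 55.5, 60.7 and 50.7 kb and Hk2 over 42.6, 45.5 and 1.91 kb in Th2, Th1 and naive cells. In all, 12 isozyme pairs were compared by their gap in percent within a library. With 3 comparisons this made 36 exact 2-sided permutation tests. With 3 libraries against 3 such a test cannot give a p below 0.1, which 30 of the 36 reached (exact permutation p = 0.1, adjusted p = 0.12 for each). The same share for other pairs of genes was not computed, so 30 of 36 is not read as a trait of isozymes. Unless stated otherwise the gaps given below are of this kind, and no pair test could pass 0.05. Hk1, Pfkl and Pfkfb2 each stand in 2 pairs, so the pairs are not independent.

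**Figure D3:**
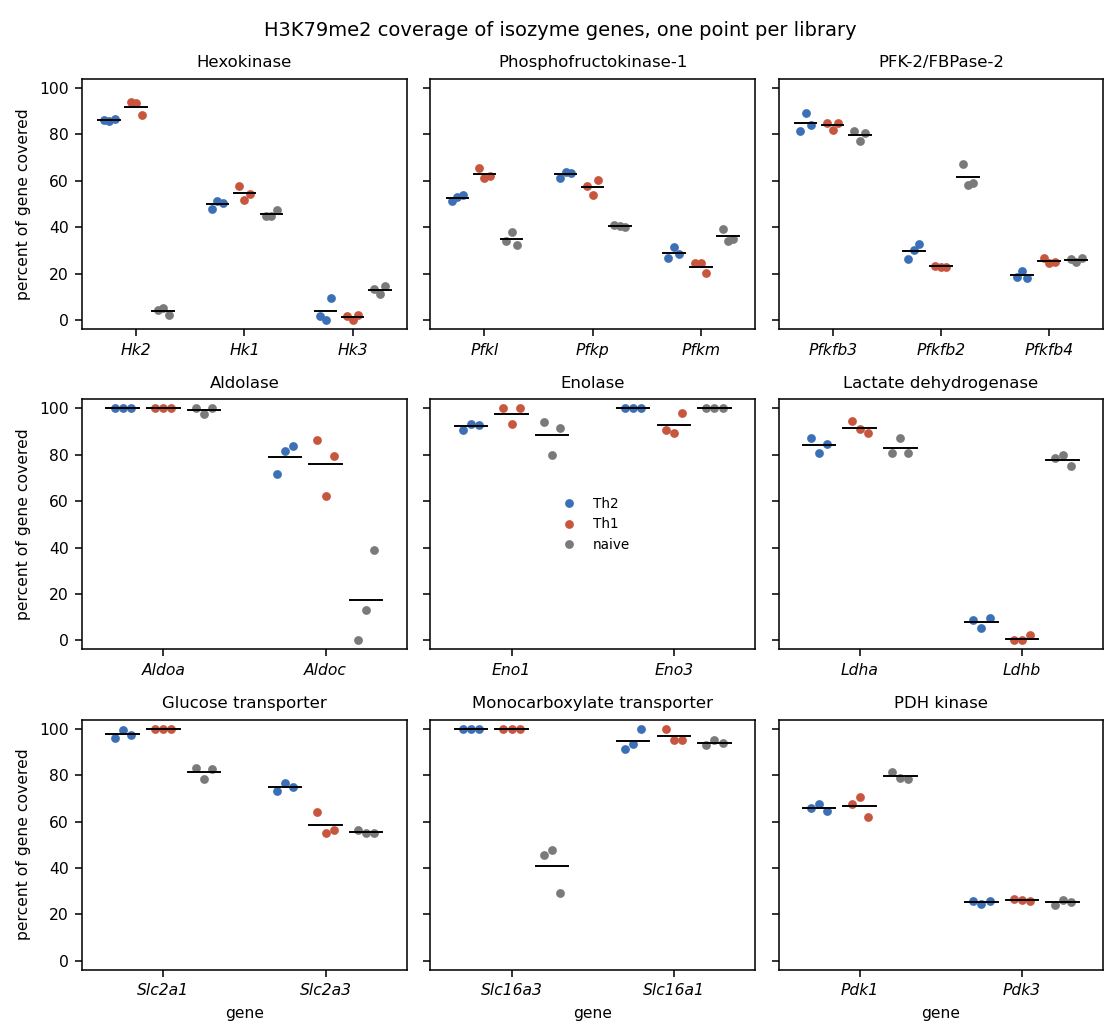
Percent of the gene covered in each library (points) with the mean of 3 (black bar) for isozymes of 9 steps, in Th2, Th1 and naive cells. The naive points of Hk2, Aldoc and Slc16a3 lie below the polarised ones and those of Ldhb and Pfkfb2 above, while Hk1, Pfkfb3, Slc16a1 and Pdk3 stay within 20 points across groups.

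In the upper part of glycolysis, 1 gene of 7 was called higher in Th2 (Aldoc) and 2 in Th1 cells (Aldoc and Pfkl), and 0 lower. Aldoa and Tpi1, at naive means of 99.2 and 90.5%, had no room to be called higher. The first committed step is made by phosphofructokinase-1. Its liver-type gene Pfkl (chr10:77986947-78009807) was covered over 51.3, 52.9 and 54.0% in Th2, 65.6, 61.1 and 62.3% in Th1 and 34.2, 37.8 and 32.1% in naive libraries. The 3 groups did not overlap, and the difference was 18.1 ± 2.04 points in Th2 (limma adjusted p = 0.00017), below the minimum, and 28.3 ± 2.04 in Th1 cells (limma adjusted p = 1.5e-05). That call ended at 13.0 points with peaks of −log10 q of at least 5, at 21.2 with matched covered length, at 0.787 in the first 5 kb and at 24.1 with the gene widened by 2 kb. The platelet-type gene Pfkp was covered over 61.4, 63.8 and 63.4% in Th2, 57.6, 54.0 and 60.5% in Th1 and 40.9, 40.6 and 40.2% in naive libraries. The muscle-type gene Pfkm was covered over 26.9, 31.4 and 28.4% in Th2, 24.5, 24.4 and 20.1% in Th1 and 39.1, 34.0 and 35.1% in naive libraries. With peaks of −log10 q of at least 5, Pfkp differed from naive by 10.7 points in Th2 and 9.41 in Th1 cells, against 22.3 and 16.8 with all peaks. Pfkm minus Pfkl was -23.8 ± 2.12 points in Th2 and -40.0 ± 2.86 in Th1, against 1.39 ± 4.58 in naive cells. Pfkp minus Pfkl was 10.1 ± 0.768, -5.62 ± 3.40 and 5.86 ± 2.69 points in Th2, Th1 and naive cells. Pfkp overlaps Pitrm1 and Pfkm overlaps Senp1, by under 3% of each gene.

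Aldolase splits the 6-carbon sugar. Aldoc (chr11:78323073-78327781, 4.71 kb), best known from brain, was covered over 71.7, 81.7 and 83.9% in Th2, 86.5, 62.4 and 79.4% in Th1 and 0, 13.0 and 38.7% in naive libraries. Polarised and naive libraries did not overlap, with differences of 61.9 ± 10.3 points in Th2 (SE, limma adjusted p = 0.0013) and 58.9 ± 10.3 in Th1 cells (limma adjusted p = 0.0017). With the gene widened by 2 kb the differences were 32.1 and 30.3 points. The second start of Aldoc was covered in 3 of 3 Th2, 3 of 3 Th1 and 0 of 3 naive libraries. Aldoa, the common isozyme, was covered over 100% in 8 libraries and 97.7% in naive library 2. Aldoa minus Aldoc was 20.9 ± 6.52 points in Th2, 23.9 ± 12.4 in Th1 and 82.0 ± 19.5 in naive cells, and Th2 and Th1 overlapped (exact permutation p = 0.8). Gpi1, which isomerises glucose-6-phosphate, was covered over 85.6 to 90.7% in Th2, 82.8 to 94.5% in Th1 and 69.1 to 72.9% in naive libraries. Tpi1, which interconverts the triose phosphates, was covered over 100% except for 71.4% in naive library 2, and it overlaps Spsb2. The single peak over Aldoa was 5.94 to 44.4 kb wide and also covered Ppp4c in 8 of 9 libraries, so full coverage of this short gene cannot be assigned to it alone.

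The bifunctional PFK-2 enzymes set the level of fructose-2,6-bisphosphate, the activator of phosphofructokinase-1, and 1 of their 3 genes was called lower in each polarised cell type. Pfkfb2 (chr1:130689043-130729253, minus strand) was covered over 26.4, 30.3 and 32.6% in Th2, 23.4, 23.0 and 23.0% in Th1 and 67.3, 58.2 and 59.0% in naive libraries. All naive libraries lay above all polarised ones, and Pfkfb2 fell by 31.7 ± 2.75 points in Th2 (SE, limma adjusted p = 4.1e-05) and by 38.4 ± 2.75 in Th1 cells (limma adjusted p = 1.4e-05). The Th2 call ended at -23.2 points in the first 5 kb and at -24.0 with libraries centred. Each of its 3 annotated starts, 13.2 to 14.7 kb into the gene, was covered in 3 of 3 naive libraries, in at most 1 Th2 library and in 0 Th1 libraries. Yod1 overlaps the gene, and on the bases of Pfkfb2 outside it the differences were -36.0 points in Th2 and -43.5 in Th1 cells. Pfkfb3, the isozyme with the strongest kinase activity, was covered over 81.7, 89.2 and 84.3% in Th2, 85.0, 82.0 and 85.0% in Th1 and 81.5, 77.1 and 80.5% in naive libraries. Pfkfb4 was covered over 18.5, 21.0 and 18.1% in Th2, 26.7, 24.4 and 25.1% in Th1 and 26.3, 24.8 and 26.8% in naive libraries. Pfkfb3 minus Pfkfb2 was 55.3 ± 3.61 points in Th2 and 60.8 ± 1.64 in Th1, against 18.2 ± 3.73 in naive cells. Pfkfb4 minus Pfkfb2 was -10.5 ± 3.43, 2.28 ± 0.988 and -35.5 ± 4.76 points in Th2, Th1 and naive cells.

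In the lower part of glycolysis, where ATP is made, 1 of the 5 genes tested was called higher in each polarised cell type. Pgk1 (chrX:106187100-106203699), the first ATP-making enzyme of the pathway, was covered over 88.7, 97.5 and 98.4% in Th2, 99.6, 97.9 and 97.5% in Th1 and 56.2, 59.1 and 60.6% in naive libraries. The polarised libraries lay above the naive ones by 36.3 ± 2.61 points in Th2 (SE, limma adjusted p = 1.6e-05) and 39.7 ± 2.61 in Th1 cells (limma adjusted p = 9e-06). With each gene cut into 3 equal segments, the gain lay at the 3′ end: the 3′ segment of Pgk1 was covered over 84.7 ± 16.0% in Th2 and 96.4 ± 3.16% in Th1, against 3.13 ± 5.41% in naive cells (SD, n = 3 each), and in the first 5 kb the differences were 3.39 and 1.73 points. Pkm, pyruvate kinase, was covered over 85.4 to 88.9% in Th2, 93.2 to 94.3% in Th1 and 70.6 to 73.0% in naive libraries. It differed from naive by 15.7 ± 1.19 points in Th2 (limma adjusted p = 2.1e-05) and 22.2 ± 1.19 in Th1 cells (limma adjusted p = 3.3e-06), short of the minimum. In Th1 cells it passed the minimum with peaks of −log10 q of at least 5 or with matched covered length (28.0 points each) and with libraries centred (30.4). Its 3′ segment was covered over 62.1 ± 5.43%, 81.4 ± 1.73% and 19.9 ± 8.08% in Th2, Th1 and naive cells. The spliced forms M1 and M2 share 1 gene body and cannot be separated by this measure.

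Pgam1, phosphoglycerate mutase, was covered over 86.0 to 88.8% in Th2, 88.6 to 100% in Th1 and 82.7 to 84.9% in naive libraries. Eno1, the common enolase, was covered over 90.9, 93.2 and 92.8% in Th2, 100, 93.2 and 100% in Th1 and 94.3, 79.9 and 91.4% in naive libraries. Eno3, the muscle enolase, was covered over 100% in all 3 Th2, 90.7, 89.3 and 98.0% in Th1 and 100% in all 3 naive libraries. Eno3 overlaps Pfn1 and sits in a domain that spanned 4 to 7 other genes, 19.8 to 27.3 kb wide in Th2, 17.6 to 20.2 kb in Th1 and 49.2 to 50.8 kb in naive libraries, so its coverage cannot be assigned to it. Eno1 minus Eno3 was -7.69 ± 1.27 points in Th2 and 5.06 ± 3.77 in Th1, against -11.5 ± 7.58 in naive cells, with Th2 and naive libraries overlapping (exact permutation p = 0.7). The domain over Gapdh was 12.6 to 35.8 kb wide in Th2, 34.9 to 36.1 kb in Th1 and 40.9 to 41.1 kb in naive libraries and also covered Iffo1 and Ncapd2, so that its constant 100% was not its own alone.

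Of the 4 genes of lactate formation and export, 1 was called higher and 1 lower in each polarised cell type. Ldha and Slc16a1, at naive means of 82.9 and 94.1%, had no room to be called higher. Lactate dehydrogenase is a tetramer of A and B chains, of which A favours lactate formation and B the return to pyruvate. Ldhb (chr6:142490249-142507957, minus strand) was covered over 8.58, 5.40 and 9.58% in Th2, 0, 0 and 2.11% in Th1 and 78.7, 79.8 and 75.0% in naive libraries. It fell by 70.0 ± 1.75 points in Th2 (SE, limma adjusted p = 7.9e-08) and by 77.1 ± 1.75 in Th1 cells (limma adjusted p = 4.5e-08), the largest loss of the pathway in both. Its start was covered in 0 of 3 Th2, 0 of 3 Th1 and 3 of 3 naive libraries, where the domain ran 12.7 kb into a gene of 17.7 kb. Ldha was covered over 87.1, 80.8 and 84.8% in Th2, 94.5, 91.2 and 89.5% in Th1 and 80.9, 87.2 and 80.7% in naive libraries, and differed from naive by 1.36 ± 2.43 points in Th2 (limma adjusted p = 0.66) and 8.82 ± 2.43 in Th1 cells (limma adjusted p = 0.015). Ldha minus Ldhb was 76.4 ± 1.87 points in Th2 and 91.0 ± 3.54 in Th1, against 5.09 ± 2.65 in naive cells. In percent covered, the pair was thus near balance in naive cells, with the B gene unmarked over most of its length in the polarised ones.

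The monocarboxylate transporters carry lactate across the cell membrane. Slc16a3, which codes the exporter MCT4 (chr11:120948484-120959000), was covered over 100% in all 3 Th2 and all 3 Th1 libraries and over 45.4, 47.8 and 29.3% in naive libraries. The differences were 59.2 ± 4.33 points in both Th2 (SE, limma adjusted p = 1.8e-05) and Th1 cells (limma adjusted p = 1.6e-05). All libraries covered its start, but the domain ran 10.6 ± 0.499 kb downstream in Th2 and 11.2 ± 0.281 kb in Th1, against 2.51 ± 0.990 kb in naive cells. Its 3′ end overlaps Csnk1d, and outside that gene the difference was 53.4 points in both. With peaks of −log10 q of at least 5, or with matched covered length, the difference was 100 points. Slc16a1, which codes the broadly used MCT1, was covered over 91.3, 93.3 and 100% in Th2, 100, 95.2 and 95.4% in Th1 and 93.1, 95.2 and 93.8% in naive libraries. Slc16a3 minus Slc16a1 was 5.14 ± 4.56 points in Th2 and 3.15 ± 2.73 in Th1, against -53.2 ± 9.80 in naive cells, and Th2 and Th1 overlapped (exact permutation p = 0.6).

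**Figure D4:**
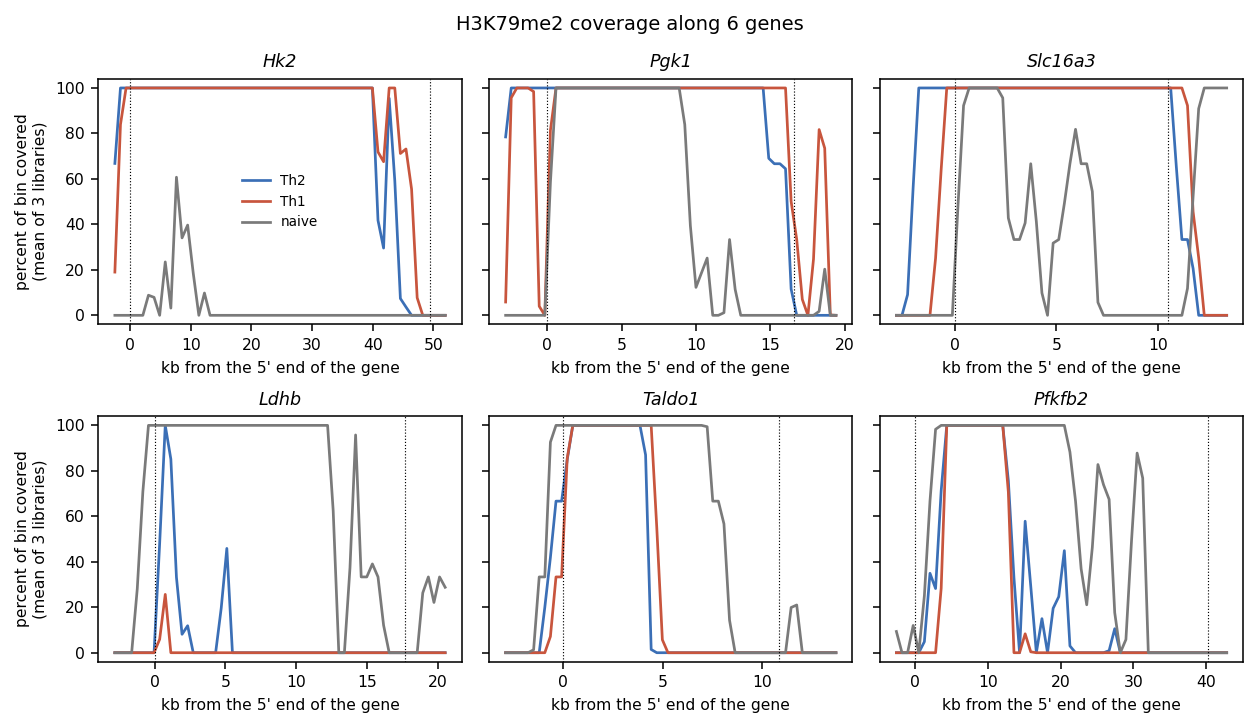
Percent of each bin covered (mean of 3 libraries) against distance from the 5′ end in kb, for 6 called genes in Th2, Th1 and naive cells, with dotted lines at the gene's ends. Hk2 and Ldhb differ along most of the gene, whereas in Pgk1, Slc16a3 and Taldo1 all groups cover a 5′ stretch and differ mainly downstream of it; in Pfkfb2 the naive domain reaches further at both ends.

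Of the 5 genes of pyruvate entry into mitochondria, 0 were called in Th2 and 1, Mpc2, was called lower in Th1 cells. Mpc2 (chr1:165461260-165481218) and Mpc1 code the 2 subunits of the mitochondrial pyruvate carrier. Mpc2 was covered over 61.6, 69.1 and 57.9% in Th2, 60.8, 50.8 and 48.7% in Th1 and 80.3, 83.3 and 83.9% in naive libraries. All naive libraries lay above all polarised ones, and the difference was -19.6 ± 3.89 points in Th2 (SE, limma adjusted p = 0.0031) and -29.1 ± 3.89 in Th1 cells (limma adjusted p = 0.00039). In Th2 cells Mpc2 passed 25 points with peaks of −log10 q of at least 5 (-30 points, limma adjusted p = 0.00028) and with matched covered length (-27.7, limma adjusted p = 0.00022), and its difference was 1.80 points in the first 5 kb. The Th1 call ended at -24.7 points with the gene widened by 2 kb, at -20.9 with libraries centred and at 1.49 in the first 5 kb. Mpc1 was covered over 84.5 to 90.5% in Th2, 79.4 to 84.3% in Th1 and 92.5 to 99.9% in naive libraries. Pdha1, the catalytic subunit gene of pyruvate dehydrogenase, was covered over 37.1 to 42.2% in Th2, 44.0 to 44.5% in Th1 and 54.9 to 64.7% in naive libraries, and it overlaps Map3k15.

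Pyruvate dehydrogenase kinases switch that enzyme off. Pdk1 was covered over 65.8, 67.6 and 64.4% in Th2, 67.5, 70.8 and 62.1% in Th1 and 81.2, 78.9 and 78.6% in naive libraries, differences of -13.6 ± 2.27 points in Th2 (limma adjusted p = 0.0013) and -12.8 ± 2.27 in Th1 cells (limma adjusted p = 0.0018). Pdk3 was covered over 25.7, 24.5 and 25.6% in Th2, 26.5, 25.9 and 25.5% in Th1 and 24.1, 26.2 and 25.3% in naive libraries, so that all groups overlapped. With libraries centred, Pdk1 differed from naive by -5.89 points in Th2 and -4.52 in Th1, and Pdha1 by -11.3 and -6.48 points. Pdk1 minus Pdk3 was 40.7 ± 2.22 points in Th2, 40.8 ± 4.14 in Th1 and 54.3 ± 2.45 in naive cells, and Th2 and Th1 could not be told apart (exact permutation p = 1).

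In the pentose phosphate pathway 1 of 5 genes was called lower in each polarised cell type. Taldo1 (chr7:141392160-141402976), transaldolase of the non-oxidative branch, was covered over 37.3, 39.0 and 39.7% in Th2, 41.5, 43.8 and 43.5% in Th1 and 75.1, 77.0 and 68.1% in naive libraries. It fell by 34.7 ± 2.44 points in Th2 (SE, limma adjusted p = 1.4e-05) and by 30.5 ± 2.44 in Th1 cells (limma adjusted p = 2.5e-05), with no overlap with naive libraries. The loss lay mostly in the middle segment, covered over 18 ± 1.13% in Th2 and 31.4 ± 4.31% in Th1, against 100% in all 3 naive libraries, while the 5′ segment was covered over 98.1 ± 3.36%, 97.3 ± 2.62% and 100%. The call ended in the first 5 kb (-16.3 points in Th2, -7.17 in Th1) and, for Th1, with libraries centred (-22.3 points). Tkt, transketolase of the same branch, was covered over 42.6 to 50.6% in Th2, 51.0 to 59.4% in Th1 and 43.4 to 48.6% in naive libraries. Rpia, which makes ribose-5-phosphate, was covered over 49.7 to 58.5% in Th2, 62.2 to 68.2% in Th1 and 56.4 to 63.4% in naive libraries.

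The 2 dehydrogenases of the oxidative branch, which make NADPH, were not called. Pgd was covered over 52.9 to 62.7% in Th2, 65.0 to 70.4% in Th1 and 68.8 to 83.1% in naive libraries. G6pdx was covered over 51.0 to 53.7% in Th2, 45.7 to 60.6% in Th1 and 56.8 to 70.2% in naive libraries, but the whole of it lies within Ikbkg, so no value belongs to it alone, and its difference from naive turned from negative to positive with matched covered length (30.2 points in Th2, 28.7 in Th1).

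The mark lay towards the 5′ end in most of the 34 genes with a known strand. Their median coverage in the 5′, middle and 3′ segment was 99.5%, 100% and 37.8% in Th2, 98.5%, 99.1% and 40.6% in Th1 and 99.3%, 93.9% and 20.1% in naive cells. The 5′ segment was covered more than the 3′ one in 28, 28 and 30 of the 34 genes. Among the genes named above, Slc2a1 (3′ segment 93.0 ± 5.30%, 100% and 51.9 ± 4.48% in Th2, Th1 and naive cells) and Gpi1 (63.9 ± 7.68%, 60.2 ± 20.2% and 14.4 ± 6.10%) also differed mainly at the 3′ end. The order was opposite in Hk1 in all 3 cell types, with 18.1 ± 2.48%, 18.4 ± 2.35% and 12.5 ± 0.972% of its 5′ segment and 31.8 ± 3.39%, 45.6 ± 8.04% and 24.4 ± 3.80% of its 3′ segment covered, and in Aldoa in naive cells.

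**Figure D5:**
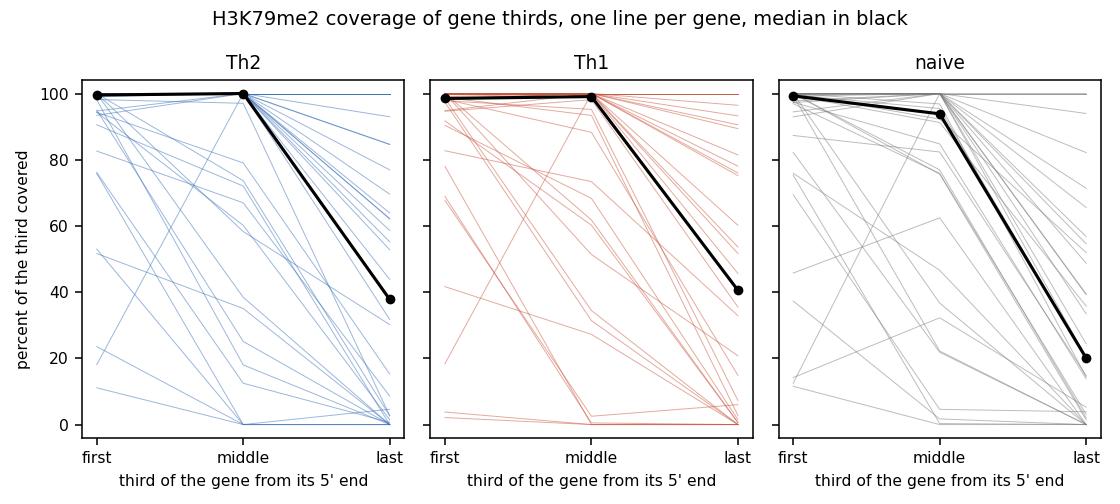
Percent of each of 3 equal segments of a gene covered, from the 5′ (first) to the 3′ end (last) (mean of 3 libraries), 1 thin line per gene for 34 genes and the median in black, in Th2, Th1 and naive cells. The medians are 93.9% or more in the first and middle segment and 37.8%, 40.6% and 20.1% in the last.

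Peaks over several of these genes ranked near the top of the lists of polarised cells, by the authors' fold enrichment within each list. Pgam1, Slc16a3 and Slc2a1 lay under the 100 strongest peaks in all 3 Th2 and all 3 Th1 lists, and Pfkp in the 3 Th2 lists. In naive lists Pgam1 alone did so, in 1 of 3. The peak over Slc2a1 ranked 29, 29 and 24 in Th2, 16, 20 and 10 in Th1 and 1041, 756 and 513 in naive lists. The strongest peak over Hk2 ranked 254, 239 and 200 in Th2, 265, 224 and 264 in Th1 and 21010, 27001 and 22823 in naive lists. Slc16a3 ranked 39, 51 and 71 in Th2, 18, 24 and 12 in Th1 and 20422, 17841 and 13022 in naive lists. Within the strongest 1% of peaks lay 10, 9 and 11 of the genes in Th2 lists, 10 in each Th1 list and 1 in each naive list. The share of all genes under such peaks was not computed. The lists differ in length and were called separately, so these ranks describe each list and no change was read from them.

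Between Th2 and Th1 cells, limma called 0 of 34 genes higher (background 2.08%) and 0 lower (background 1.56%), with 16 genes at an unadjusted p under 0.05, 6 at an adjusted p under 0.05 and none of these 16 at 25 points. The share of all genes at these p-values without a minimum difference was not computed, so the 16 and the 6 have no background. At a minimum of 10 points 1 gene was higher in Th2, Slc2a3 (2.94%, background 5.78%), and 2 were lower (5.88%, background 4.44%), Pfkl with a difference of -10.3 ± 2.04 points (limma adjusted p = 0.014) and Rpia with -10.8 ± 2.94 (limma adjusted p = 0.048). The other 3 at an adjusted p under 0.05 were Pkm with -6.44 ± 1.19 points in Th2 minus Th1 (limma adjusted p = 0.01), Pfkfb4 with -6.20 ± 1.21 (limma adjusted p = 0.013) and Ldhb with 7.15 ± 1.75 (limma adjusted p = 0.032). A difference that misses the threshold does not show that the 2 cell types were alike at the other genes.

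Of 42 further genes of the pathway and its regulators, 30 varied between libraries. They were chosen for their place in the pathway, but with earlier results of these data known. Several isozymes known from other tissues, such as Pklr (liver), Pgam2 (muscle), and Ldhc and Pgk2 (testis), were at 0% in all 9 libraries. Called higher in Th2 against naive cells were 2, Slc2a6, a glucose transporter of internal membranes, by 56.9 ± 7.84 points (limma adjusted p = 0.00047), and Hif1a, the oxygen-regulated factor that drives glycolytic genes, by 32.6 ± 0.882 (limma adjusted p = 1.1e-07), beside 4.26% of all genes called higher. Called lower was 1 of the 30, where 15.4% of all genes were called lower: Pdhb, the beta subunit gene of pyruvate dehydrogenase, by 35.5 ± 6.31 points (limma adjusted p = 0.0018). In Th1 against naive cells, 3 were called higher (Hif1a by 32.6, Slc2a6 by 30.9 and Gapdhs by 27.6 points). Only 19.3% of the bases of Gapdhs lie outside Sbsn, so its difference cannot be assigned to it alone. In the same comparison 4 were called lower: Pdhb (-45.2 points), Prps2 (-33.2), Bpgm (-31.3) and H6pd (-29.0). Prps2 codes a ribose-phosphate pyrophosphokinase, Bpgm bisphosphoglycerate mutase and H6pd the microsomal hexose-6-phosphate dehydrogenase. All genes had 4.38% called higher and 16.3% called lower in that comparison. Between Th2 and Th1 cells 0 of the 30 were called in either direction. Hif1a was covered over 100% in all 3 Th2 and all 3 Th1 libraries and over 66.3, 66.9 and 69.0% in naive libraries, and Myc over 100% in all 9.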

How the data were processed

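H3K79me2 was mapped by ChIP-seq in 3 Th2, 3 Th1 and 3 naive libraries, and the authors deposited 1 broad peak list per library. The build was mm10 and the tools included MACS2, Bowtie2, SAMtools and Picard, per the submitters' processing notes. Their versions and settings, and any use of inputs, are not given in the sources used here. Each deposited peak carries a display score (10 times its −log10 q, truncated), a fold enrichment ratio, and −log10 p and −log10 q values, each relative to its own library; these served only to rank or filter peaks within a list. Depth is unknown, so no counting interval was set.

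Merged peaks (Python 3.11.15, pandas 2.3.3) were intersected with 21631 protein-coding genes of RefSeq on GRCm38.p6, the assembly of mm10. Of the 35 genes, 9 overlap another protein-coding gene (Hk3, Pfkm, Pfkp, Pfkfb2, Tpi1, Eno3, Slc16a3, Pdha1 and G6pdx) and their values are uncertain to that extent. Percent covered was fitted in limma 3.58.1 (R 4.3.3; lmFit, eBayes with a variance trend; 9 libraries, 6 residual degrees of freedom) on the 11600 genes that varied, with p-values adjusted over all of them. Genes without spread between libraries owe their p to the variance borrowed from other genes. Tested on simulated data, a Th1 against naive comparison over 11600 genes, it called 95 of 100 gains of 30 points, 98 of 100 gains of 50, 92 of 100 losses of 30 and 99 of 100 losses of 50, with 0 false calls. The simulated gains were put only into genes of low naive coverage and the losses only into genes of high naive coverage. Noise was drawn separately for each gene and library. These rates thus do not apply to gains of genes near full coverage or to losses of genes near none. False calls under unequal covered length of the lists were not tested with simulated data. No pair of libraries shared more than 1 identical peak. Every gene of the group is accounted for, with values per library for called genes and isozymes and ranges for the rest. A few marker and pathway genes are not reported here. The genes and lists were chosen with earlier results of these data known. Alternatives were a −log10 q of at least 5, matched covered length, a 5-kb window at the 5′ end, genes widened by 2 kb, centred libraries, no genes left out, no variance trend, a minimum of 10 points, a replicate block, and each library left out. Bases outside other protein-coding genes were added after the data were seen.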

Additional observations from a re-analysis of the deposited data

How the results depend on the processing

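Read depth and antibody efficiency cannot be read from peak lists, the naive lists covered more sequence, and a gene near 0 or 100% cannot move further. Under a minimum of 10 points the counts of genes called higher and lower were 10 and 8 in Th2 against naive, 10 and 10 in Th1 against naive and 1 and 2 in Th2 against Th1. With libraries centred they were 8 and 2 in Th2 and also 8 and 2 in Th1 against naive cells. In the first 5 kb 1 gene, Pfkfb4, was called lower in Th2 against Th1. At 80% covered, 17, 16 and 12 genes were marked in Th2, Th1 and naive cells. The other alternatives kept these counts within 1.5 times, and leaving out each library in turn left the counts at 4 and 3, 5 and 4, and 0 and 0, with 24 to 26 genes marked in Th2, 25 to 26 in Th1 and 24 in naive cells. The sign of a difference turned for G6pdx with matched covered length (30.2 points in Th2, 28.7 in Th1 against naive) and with a −log10 q of at least 5 (0.0567 in Th1), for Pgd (0.707 in Th2), Mpc2 (1.80 in Th2, 1.49 in Th1) and, in Th2 against Th1, Rpia (0.913), all in the first 5 kb, and for Hk3 with matched covered length (0.663 in Th1). The change in the gap between Th1 and naive cells turned for Pfkp minus Pfkl in the first 5 kb (1.93 points) and for Slc2a1 minus Slc2a3 with a −log10 q of at least 5 (-0.558) and matched covered length (-20.4). Of the other changes in gaps under alternatives that kept all libraries, 84 moved by more than the spread between libraries and 73 did not. Centring libraries cannot alter a gap within a library, so that alternative entered the 73 by construction. The sizes of the gaps thus depend on these choices. Pfkl in Th2 against Th1 came to -0.570 points with a −log10 q of at least 5. The cause was not tested. The replicate numbers did not pair libraries (correlations of deviations -0.0745 to 0.00147 over same-numbered pairs). With the replicate block the counts were 4 and 3, 5 and 4, and 0 and 0, and no call of a gene changed.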
